A study of Solanum tuberosum with 9 samples.

Results

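The count matrix of this potato tuber study held 34239 gene models, and 1322 of them carried identifiers beginning with MLS_newGene. The other 32917 had identifiers without that beginning, and whether these belong to a reference gene set was not checked. They are called submitter-added models here, because their names were given during the submitters' processing. The 167 models described were those with a mean of at least 20 CPM (a model's count scaled by the total count of its library) over the 9 libraries, and 1155 submitter-added models lay below that level. The members were therefore chosen by their measured level, so their abundance is a description and not a finding. The files used here pair these identifiers with no gene name, function or coordinate, so no role and no sequence is given for any of them. In the RefSeq gene table of assembly SolTub_3.0, 0 of the 167 identifiers were matched. The same held for all 34239 models, of which 0 were matched, so the lookup says nothing particular to the members. Whether the members lie outside the genes of the reference annotation could therefore not be checked here.

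Tubers of the cultivar Keshan, bought as mature tubers, were put into sealed storage either untreated or fumigated with rosemary essential oil (REO) at the start. The libraries came from untreated control tubers at day 0, from untreated control tubers at day 40 and from REO tubers at day 40, with 3 replicates in each group. There was no REO group at day 0, so the comparison of REO day 40 with day 0 sets treated tubers against untreated ones. The labels do not say whether replicates were separate tubers, so p-values cover only the spread among these samples. The libraries held 29330673 to 36901701 counts. Day 0 replicate 3 and control day 40 replicate 2 stood apart with the lowest and the highest TMM factor (edgeR's scaling factor), 0.871 and 1.10. Values without them are given where they were computed and changed a result.

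A stored potato tuber is a living organ that passes from dormancy towards sprouting while it respires its reserves, and essential oils rich in volatile terpenes are used to delay sprouting. A reference annotation lists the transcribed regions known when it was made. When reads from another cultivar or tissue are assembled against a genome, stretches with reads but no listed gene can be added as new models. Such a model may be a protein-coding gene, a long noncoding RNA, an unspliced precursor, part of a neighbouring transcript or a transcribed repeat, and its identifier alone does not tell which.

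The 167 members were mostly of moderate level. A mean of 20 to 50 CPM was found for 103 members (61.7%), against 50.6% of the 7536 other models of at least 20 CPM. A further 33 members (19.8%) had 50 to 100 CPM and 26 (15.6%) had 100 to 1000 CPM, against 24.9% and 23.4% of the other models. At 1000 CPM or more stood 5 members (2.99%), compared with 84 other models (1.11%). Just inside the level threshold were MLS_newGene_6525, with a mean of 20.03 CPM and a range of 3.77 to 36.8 CPM, and MLS_newGene_595, with 20.12 CPM and 16.3 to 26.3 CPM. Just outside it were MLS_newGene_1541, with 19.96 CPM and 13.0 to 25.2 CPM, and MLS_newGene_4548, with 19.95 CPM and 6.45 to 28.0 CPM. At least 1 group mean was under 20 CPM in 27 members, which reached the threshold through the groups where they were high. MLS_newGene_6525, MLS_newGene_1678, MLS_newGene_4116 and MLS_newGene_4165, whose group differences are given further on, were among the 27, while MLS_newGene_5552 and MLS_newGene_4839 were not. No member had 0 counts in any library. The lowest was 49 counts of MLS_newGene_4116 in REO replicate 2, with an exact Poisson 95% interval of 36.3 to 64.8 that covers counting error only.

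The members took 4.10%, 3.36% and 6.47% of all counts in control day 0 replicates 1, 2 and 3. They took 6.28%, 3.74% and 7.05% in control day 40 replicates 1, 2 and 3, and 12.1%, 6.56% and 4.66% in REO day 40 replicates 1, 2 and 3. REO replicate 1 was the highest of the 9 libraries and the groups overlapped. The group means were 4.64% ± 1.63, 5.69% ± 1.73 and 7.76% ± 3.85 (SD, n = 3 each).

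No group difference in the summed share passed a test. REO exceeded control at day 40 by 2.07 percentage points (exact permutation test, two-sided, p = 0.5). Control at day 40 exceeded day 0 by 1.05 points (exact permutation test, p = 0.5) and REO exceeded day 0 by 3.12 points (exact permutation test, p = 0.2). Adjusted over these 3 comparisons by the Benjamini-Hochberg method, each exact p was 0.5, and with 3 libraries against 3 the smallest possible p was 0.1. Without REO replicate 1 the mean difference between REO and control at day 40 changed sign, from 20748 CPM to -791.5 CPM. It was 11009 CPM without control day 40 replicate 2 and 36263 CPM without REO replicate 3.

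The storage differences of the summed level also rested on single libraries. Control day 40 minus day 0, 10478 CPM, became 4045 CPM without day 0 replicate 2 and 19618 CPM without day 0 replicate 3. Without control day 40 replicates 2 and 3 in turn it was 20217 and 3687 CPM. REO minus day 0, 31225 CPM, became 9686 CPM without REO replicate 1. In bulk tissue, fewer cells of a type and less RNA per cell cannot be told apart.

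**Figure D1:**
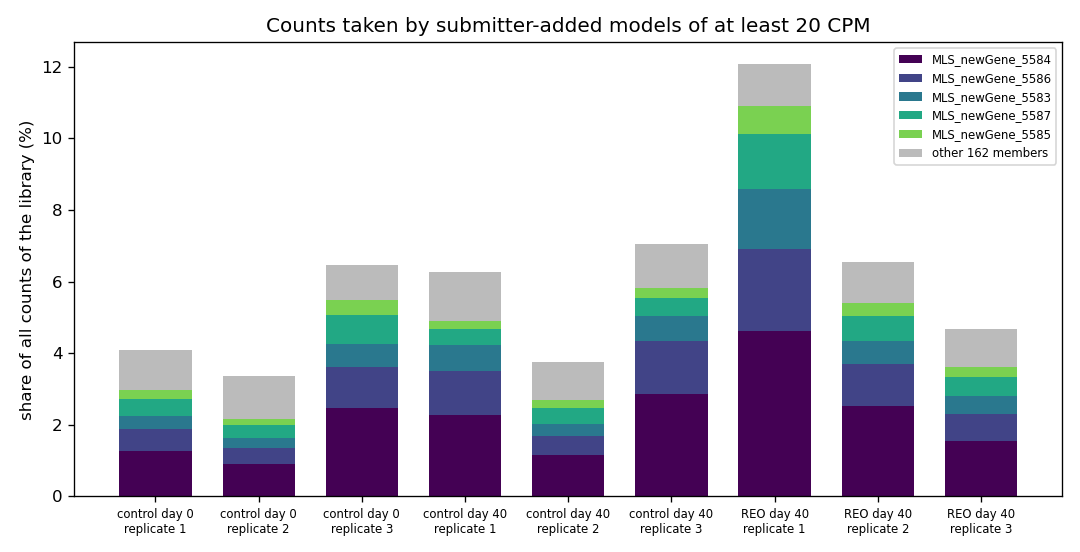
Share of all counts of each library (%) taken by the submitter-added models of at least 20 CPM, with a coloured segment for each of the 5 most abundant and a grey one for the other 162 together. Bars run from 3.36% to 6.47% at day 0 and reach 12.1% in REO replicate 1, while the grey segment stays between 0.967% and 1.37%.

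Most of that share came from the 5 most abundant members, MLS_newGene_5583 to MLS_newGene_5587, whose identifiers carry consecutive numbers. Together they held 2.97%, 2.17% and 5.50% of counts in the day 0 libraries. They held 4.91%, 2.70% and 5.81% in the control libraries of day 40, and 10.9%, 5.42% and 3.60% in the REO libraries. Their highest library was again REO replicate 1 and their lowest control day 0 replicate 2. The other 162 members together held 1.13%, 1.19% and 0.967% at day 0, then 1.37%, 1.04% and 1.24% in day 40 controls, and 1.18%, 1.14% and 1.06% with REO. These sums overlapped between all groups and spanned a much narrower range than those of the 5.

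For the 5 abundant members together the exact permutation test gave p = 0.5 for REO against control at day 40, 0.6 for control day 40 against day 0 and 0.3 for REO against day 0. For the other 162 the same exact tests gave 0.5, 0.4 and 0.7. The mean share of the other 162 was 1.13% with REO and 1.22% in day 40 controls, within the spread between replicates.

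MLS_newGene_5584 had the highest mean count of all 34239 models, 21814 CPM, and ranked 4 by deposited FPKM, a scale that divides the scaled count by the model's length, with a mean of 5296 FPKM. It took 1.27%, 0.918% and 2.47% of counts at day 0, 2.27%, 1.16% and 2.86% in day 40 controls, and 4.61%, 2.53% and 1.54% with REO. Values of the 3 groups overlapped, and replicates of 1 group differed up to 3-fold. Its log2 fold change of REO against control at day 40 was 0.53 ± 0.58 (SE) and did not pass (edgeR adjusted p = 0.971).

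MLS_newGene_5586 was the second by count, at 10715 CPM, and ranked 9 by FPKM, at 3593. It took 0.610%, 0.436% and 1.15% of counts at day 0, 1.22%, 0.536% and 1.47% in day 40 controls, and 2.30%, 1.17% and 0.754% with REO. The libraries stood in almost the order they had for MLS_newGene_5584. MLS_newGene_5583, at 6558 CPM and 1557 FPKM, took 0.372%, 0.289% and 0.633% at day 0, then 0.735%, 0.330% and 0.707%, and 1.69%, 0.642% and 0.510% with REO. Its highest library held 29.1% of its CPM, scaled by the TMM factors and summed over the 9 libraries, the second largest such share among the members.

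MLS_newGene_5587 had a lower count, 6426 CPM, but ranked 5 by FPKM, at 4486, with a length scale of 1433 bases. It took 0.475%, 0.344% and 0.809% of counts at day 0, 0.447%, 0.451% and 0.504% in day 40 controls, and 1.53%, 0.696% and 0.527% with REO. The 3 control libraries of day 40 lay close together for this model, below all 3 REO libraries. MLS_newGene_5585, at 3338 CPM and 1314 FPKM, had the same order of groups, with 0.245%, 0.180% and 0.434%, then 0.240%, 0.224% and 0.274%, then 0.764%, 0.372% and 0.271%. Its lowest REO library lay just below its highest control library of day 40.

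The differences of these last models between REO and control at day 40 were the largest of the 5, at log2 fold changes of 1.05 ± 0.48 (SE) for MLS_newGene_5587 and 1.0 ± 0.48 for MLS_newGene_5585. Neither passed (edgeR adjusted p = 0.666 and 0.688). Of the 15 contrasts of the 5 models, 0 passed, with edgeR adjusted p from 0.369 to 0.982.

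The ratio of counts between members of this series of numbers, looked at after the levels had been seen, was steadier than the levels. MLS_newGene_5584 to MLS_newGene_5586 stood at 2.08, 2.11 and 2.15 at day 0, 1.87, 2.16 and 1.94 in day 40 controls, and 2.01, 2.16 and 2.04 with REO. The ratio thus spanned 1.16-fold while each level spanned over 5-fold. MLS_newGene_5585 to MLS_newGene_5587 stood at 0.516, 0.522 and 0.536, then 0.538, 0.495 and 0.545, and 0.500, 0.534 and 0.513, a span of 1.10-fold.

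Between these pairs the ratio was not steady. MLS_newGene_5584 to MLS_newGene_5587 was 2.67, 2.67 and 3.06 at day 0, 5.09, 2.57 and 5.67 in day 40 controls, and 3.02, 3.64 and 2.91 with REO. Control day 40 replicates 1 and 3 stood apart from the other 7 libraries, and control day 40 replicate 2 had the lowest value. Members counted on overlapping or near-identical sequence could share reads, and the sources used here do not say how such reads were assigned, so the split between the 5 models is uncertain.

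**Figure D2:**
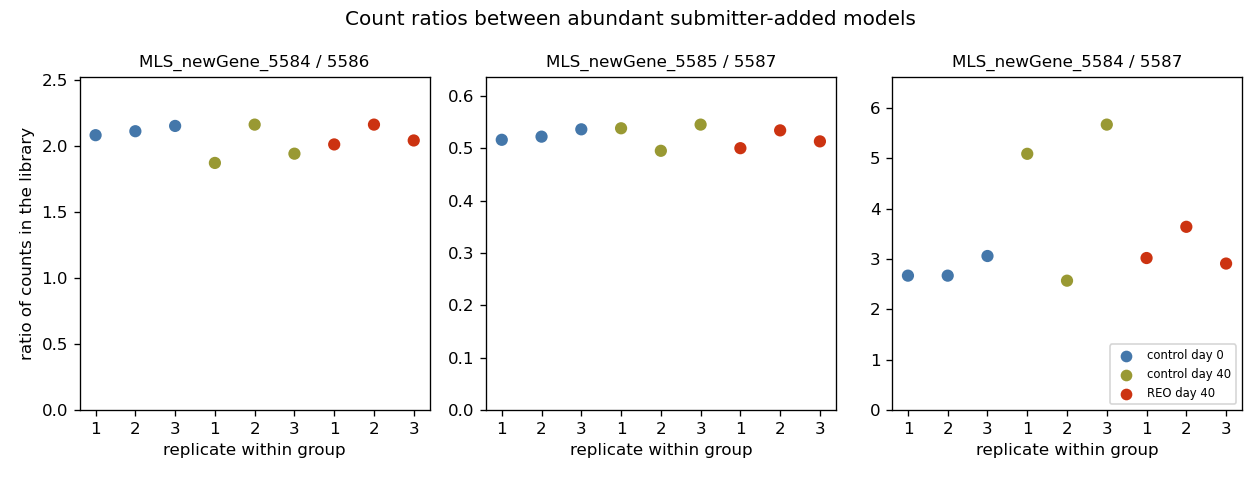
Ratios of counts between abundant submitter-added models in each library, with the replicate number on the x axis and colour for the group. The first ratio lies between 1.87 and 2.16 and the second between 0.495 and 0.545, while the third reaches 5.09 and 5.67 in control day 40 replicates 1 and 3 and is 2.57 to 3.64 in the others.

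MLS_newGene_5588, the next number, was a member at a far lower level. Levels of single models by library or group are printed from here on in CPM scaled by edgeR's TMM factors. Means over all 9 libraries, level thresholds and summed levels stay in CPM without that scaling. MLS_newGene_5588 stood at 135, 99.7 and 140 at day 0, 68.3, 58.5 and 66.6 in day 40 controls, and 147, 74.1 and 58.4 with REO. Every day 0 library lay above every control library of day 40, and the REO libraries spanned both. Its log2 fold change from day 0 to day 40 without REO was -0.95 ± 0.31 (SE) and did not pass (edgeR adjusted p = 0.17).

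Consecutive numbers occurred elsewhere too. In all, 18 members fell into 7 runs of consecutive numbers, and 6 members were among the 8 submitter-added models from MLS_newGene_1904 to MLS_newGene_1914. The pair MLS_newGene_5420 and MLS_newGene_5421 had a count ratio that spanned 1.5-fold over the libraries, and the pair MLS_newGene_1904 and MLS_newGene_1905 one that spanned 6.12-fold. The files give no position, so whether consecutive numbers are neighbours in the genome was not tested.

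After these 5, the next members by level were MLS_newGene_1914, MLS_newGene_6830, MLS_newGene_4994, MLS_newGene_4966 and MLS_newGene_6797, with means of 733, 551, 525, 499 and 491 CPM. MLS_newGene_1914 was the steadiest, at 669, 685 and 673 CPM at day 0, 906, 602 and 698 in day 40 controls, and 837, 802 and 717 with REO. MLS_newGene_4994 stood at 539, 499 and 430 CPM, then 652, 410 and 539, and 636, 556 and 459. For both the groups overlapped. MLS_newGene_6797 ranged from 266 CPM in control day 40 replicate 2 to 696 in control day 40 replicate 1, so its extremes were replicates of the same group.

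MLS_newGene_6830 had 585, 633 and 436 CPM at day 0, 1001, 548 and 540 in day 40 controls, and 486, 367 and 332 with REO. Every REO library lay below every control library of day 40. The log2 fold change was -0.82 ± 0.28 (SE), and it did not pass (edgeR adjusted p = 0.441). MLS_newGene_4966 was the shortest of the 10 most abundant members by length scale and had 824.5 FPKM. It stood at 370, 342 and 793 CPM at day 0, 499, 426 and 423 in day 40 controls, and 573, 509 and 596 with REO, so that its lowest and its highest library were both of day 0.

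The ratio of a model's count to its deposited FPKM gives a length scale in bases, and on it the members differed from other models of at least 20 CPM. Their median was 2809 bases with quartiles of 1347 and 4164, against 2080 bases with quartiles of 1430 and 2869 for the others. At 5000 bases or more were 29 members (17.4%), against 3.89% of the others, and under 500 bases were 3 members (1.80%), against 1.76%. The members' median of 17.1 FPKM lay below the 24.9 FPKM of the others. These differences were not tested, and the level threshold is set on counts, which rise with length at equal FPKM.

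The shortest members by this scale were MLS_newGene_5552, at 305 bases, and MLS_newGene_3122, at 464 bases. MLS_newGene_3122 stood at 39.3, 33.3 and 61.3 CPM at day 0, 28.9, 48.9 and 30.9 in day 40 controls, and 33.6, 33.1 and 37.8 with REO, with overlapping groups. The longest were MLS_newGene_4165, at 23947 bases, and MLS_newGene_6869, at 10804 bases. MLS_newGene_6869 stood at 17.8, 28.8 and 9.42 CPM at day 0, 31.5, 19.6 and 22.6 in day 40 controls, and 24.6, 25.04 and 20.5 with REO. Its extremes were day 0 replicate 3, the lowest, and control day 40 replicate 1, the highest.

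The length scale itself moved between libraries for many members. Of the 161 members with at least 200 counts in every library, 54 (33.5%) had a ratio that varied by over 2%, against 585 of 7455 other models (7.85%). It moved most for MLS_newGene_6804, from 2600 to 7410 bases, and for MLS_newGene_2374, from 1510 to 3740 bases. A single length for a model in all libraries would give a fixed ratio.

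The median spread between replicates was higher for the members than for the other models of at least 20 CPM. The median coefficient of variation (SD as a percent of the mean) of the members was 24.4% at day 0, 22.7% in control tubers at day 40 and 12.8% with REO, against 16.5%, 16.5% and 9.75% for the other models. Over all 9 libraries it was 24.7% for the members and 19.0% for the others. The sets were matched for neither length nor level, in which they differed, and the difference in spread was not tested. The flattest member was MLS_newGene_6776, at 24.5 to 30.4 CPM with a coefficient of 7.49%. MLS_newGene_4335, at 48.6 to 63.5 CPM, and MLS_newGene_3758, at 20.1 to 26.5 CPM, followed with 9.54% and 9.63%.

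Day 0 replicate 3 was the lowest of the 9 libraries for 77 members (46.1%), against 27.1% of the other models of at least 20 CPM. On CPM without TMM scaling these shares were 56.3% and 41.9%. In that library 28 members (16.8%) were under 0.5 times their own median over the libraries, against 3.30% of the other models. Of the 77 members, 54 were highest in control day 40 replicate 1 or 3, a count not made for the other models. The median length scale of the 77 was 3930 bases, against 1727 bases for the other 90 members. Among the other models of at least 20 CPM, the 2042 lowest in day 0 replicate 3 had a median of 3264 bases, against 1802 for the rest.

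The place of day 0 replicate 3 followed length. In it, the median log2 ratio of a member to its own median over the libraries was 0.63 for the 34 members under 1000 bases and 0.17 for the 24 of 1000 to 2000 bases. It was -0.31 for the 33 of 2000 to 3000 bases, -0.42 for the 47 of 3000 to 5000 bases and -1.02 for the 29 of 5000 bases or more. The other models of these classes had 0.61, 0.25, -0.06, -0.42 and -0.93, so the slope was shared with the other models. The values are given here because this library is 1 of the 3 behind every comparison with day 0.

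**Figure D3:**
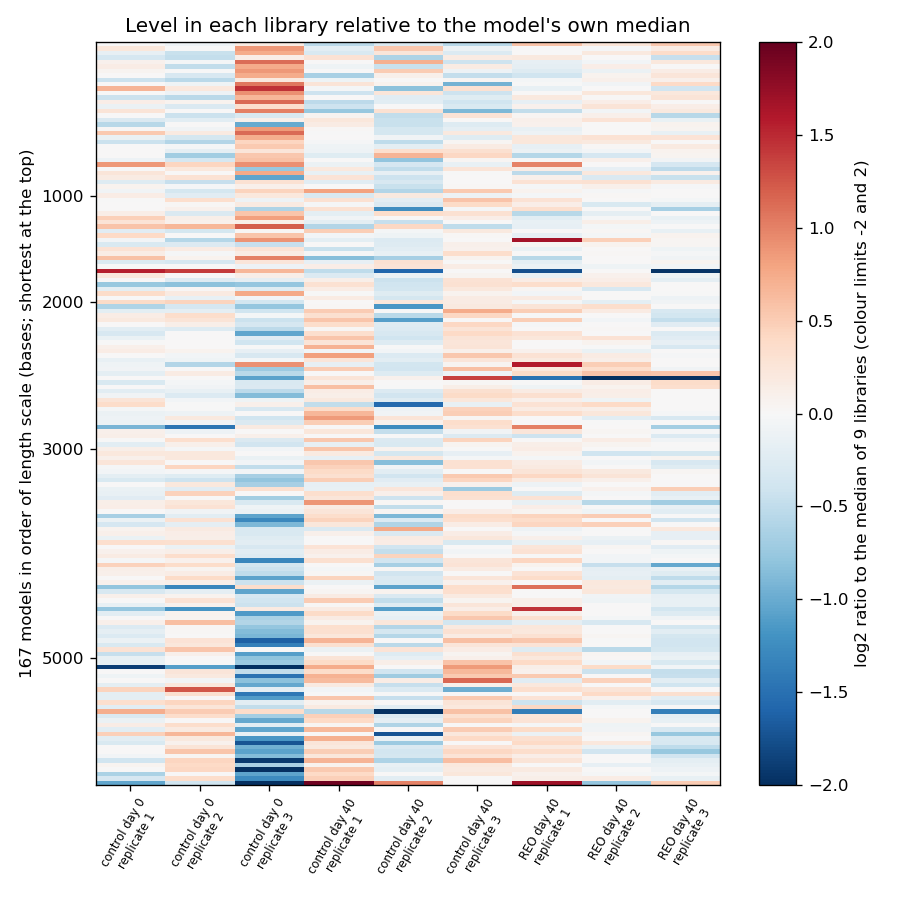
Level of each of the 167 submitter-added models in each library as a log2 ratio to its own median over the 9 libraries, with models ordered by length scale from the shortest at the top to the longest at the bottom. Day 0 replicate 3 runs from red (higher) among short models to blue (lower) among long ones, from a median of 0.63 under 1000 bases to -1.02 at 5000 bases or more.

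REO was set against control at day 40 to ask which models differed with fumigation after equal storage. All 167 members passed the filter on low counts and were among the 22638 models tested. Of the members 1 was higher, which is 0.599%, against a background of 0.424% of all models tested, and 0 were lower, against 0.0353% (edgeR quasi-likelihood test, adjusted p under 0.05). At an unadjusted edgeR p under 0.05 there were 3 members higher (1.80%) and 9 lower (5.39%), against 4.29% and 3.51% of all models tested. DESeq2 called 1 higher and 1 lower (0.599% each), against 1.77% and 0.587% of models with an adjusted p. With limma on log2(FPKM + 1) there were also 1 and 1, against 0.557% and 0.0574%. Without control day 40 replicate 2, edgeR called 1 higher and 0 lower, against 0.698% and 0.0655%. The numbers behind these shares are too small to set the members apart from other models.

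The members' median log2 fold change in this comparison was -0.06, against -0.05 for all models tested, with quartiles of -0.21 and 0.10. It was -0.16 without control day 40 replicate 2 and turned to 0.03 without control day 40 replicate 3. The groups did not overlap for 10 members with REO higher (5.99%), against 7.56% of all models tested, and for 10 with REO lower (5.99%), against 6.39%. Without TMM scaling the counts were 7 (4.19%) and 16 (9.58%), against 5.76% and 9.59%, so the even split depended on the scaling. A log2 fold change of 1 or more in size was found for 3 members (1.80%), against 8.66% of all models tested and 2.32% of the other models of at least 20 CPM. The central 95% of those other models ran from -0.62 to 0.70, and 8 of the 167 members lay outside it.

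The member that rose with REO was MLS_newGene_5552, the shortest by length scale, with a mean of 34.9 CPM and 114 FPKM. It stood at 33.6, 31.4 and 37.6 CPM at day 0, 23.1, 27.4 and 22.8 in day 40 controls, and 50.1, 40.0 and 48.8 with REO. No 2 groups overlapped: control tubers at day 40 were lowest, day 0 intermediate and REO highest. The group means were 34.2 ± 3.13, 24.4 ± 2.61 and 46.3 ± 5.49 CPM (SD, n = 3 each).

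The log2 fold change of MLS_newGene_5552 between REO and control at day 40 was 0.92 ± 0.15 (SE) and passed (edgeR adjusted p = 0.0376). The call was lost in 10 of 20 alternatives (adjusted p of edgeR, DESeq2 or limma from 5.59e-06 to 0.161). It was lost without day 0 replicate 1 or 2, without control day 40 replicate 1 or 3, and without any of the REO replicates. Its change from day 0 was -0.49 without REO and 0.44 with REO, and neither passed (edgeR adjusted p = 0.146 and 0.158).

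The member with the largest difference in the other direction was MLS_newGene_4116. It stood at 24.1, 24.2 and 11.5 CPM at day 0, 28.8, 25.6 and 62.3 in day 40 controls, and 8.66, 1.38 and 3.13 with REO. Each REO library lay below all 6 control libraries, and control day 40 replicate 3 held 32.8% of its CPM summed over the libraries. The group means were 19.97 ± 7.29, 38.9 ± 20.3 and 4.39 ± 3.80 CPM (SD, n = 3 each). MLS_newGene_4116 reached the level threshold only through control day 40, so its place among the members draws on the same values as its tests. Its calls by DESeq2 and limma, given next, are no support for a fall of the members.

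With a log2 fold change of -3.16 ± 0.66 (SE), MLS_newGene_4116 did not pass between REO and control at day 40 (edgeR adjusted p = 0.104). It passed in 3 of 20 alternatives, with DESeq2 (adjusted p = 2.06e-05) and with limma on log2(FPKM + 0.1) and log2(FPKM + 1) (adjusted p = 0.0484 and 0.0337), and the highest adjusted p (edgeR) was 0.369.

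**Figure D4:**
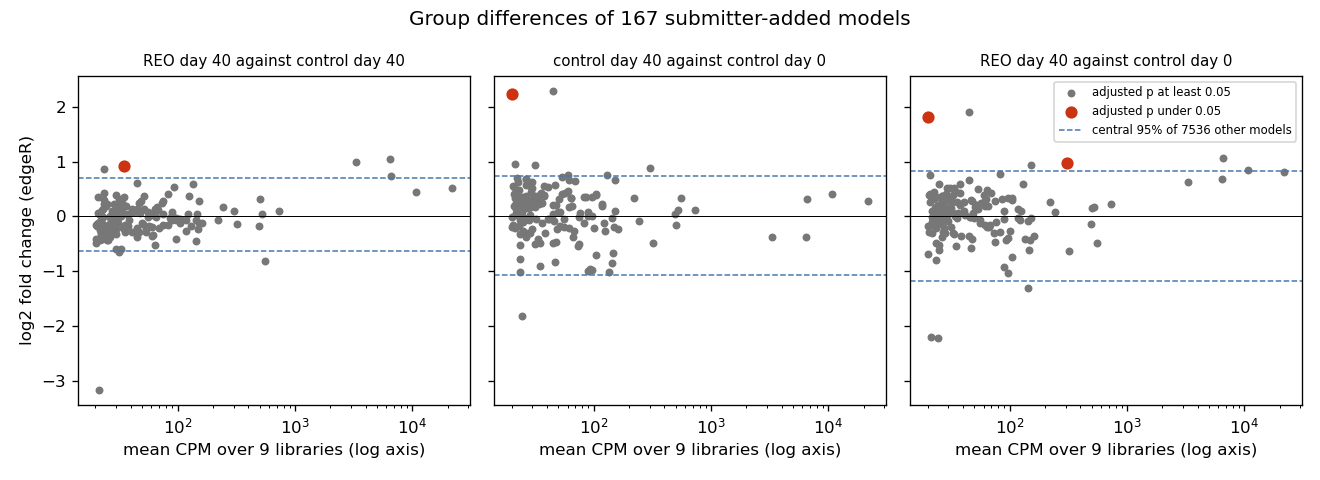
Log2 fold change from edgeR against mean CPM over the 9 libraries (log axis) for the 167 submitter-added models in the 3 comparisons, with models of adjusted p under 0.05 in red and the central 95% of the 7536 other models between dashed lines. There are 1, 1 and 2 red points, and 8, 8 and 9 models lie outside the lines.

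Storage without treatment was read from control day 40 against control day 0. Of the members 1 was higher (0.599%), against a background of 0.274% of all models tested, and 0 were lower, against 0.57% (edgeR quasi-likelihood test, adjusted p under 0.05). At an unadjusted edgeR p under 0.05 there were 13 higher (7.78%) and 15 lower (8.98%), against 9.04% and 9.34% of all models tested. DESeq2 called 4 higher (2.40%) and 5 lower (2.99%), against 3.33% and 4.07% of models with an adjusted p. The counts of limma on log2(FPKM + 1) were 2 (1.20%) and 0, against 0.552% and 0.72%. Without control day 40 replicate 2, edgeR called 5 members higher (2.99%) and 1 lower (0.599%), against 1.73% and 2.57%.

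The groups did not overlap for 15 members higher at day 40 (8.98%), against 9.43% of all models tested, and for 10 lower (5.99%), against 10.4%. Without TMM scaling these counts were 21 (12.6%) and 11 (6.59%), against 14.2% and 6.83%. The members' median log2 fold change was 0.17, against 0.04 for all models tested and 0.01 for the other models of at least 20 CPM. Above 0 were 105 members (62.9%), against 53.2% of all models tested and 50.6% of those other models. Without day 0 replicate 3, control day 40 replicate 1 or control day 40 replicate 3 the members' median was 0.09. Without control day 40 replicate 2 it was 0.24.

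The median storage change of the members also went with length. It was -0.23 and -0.03 on the log2 scale for members under 1000 and of 1000 to 2000 bases, and 0.30, 0.21 and 0.35 for those of 2000 to 3000, 3000 to 5000 and 5000 bases or more. Without day 0 replicate 3 the same classes had 0.01, 0.03, 0.25, 0.08 and 0.09. The other models of at least 20 CPM had -0.30, -0.09, 0.05, 0.17 and 0.24 with that library, and -0.05, 0.01, 0.02, 0.04 and 0.00 without it.

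The member that rose in storage was MLS_newGene_6525, at the level threshold, with a length scale of 5070 bases and 3.96 FPKM. It stood at 5.48, 9.43 and 4.33 CPM at day 0, 33.7, 20.2 and 36.5 in day 40 controls, and 21.9, 26.5 and 19.6 with REO. All 6 libraries of day 40 lay above all 3 of day 0, and control and REO overlapped at day 40. The group means were 6.41 ± 2.67, 30.1 ± 8.70 and 22.7 ± 3.51 CPM (SD, n = 3 each). MLS_newGene_6525 reached the level threshold only through its day 40 groups, so its place among the members draws on the same values as the storage tests, and its calls are no support for a rise of the members.

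Its log2 fold change from day 0 to day 40 without REO was 2.23 ± 0.33 (SE) and passed (edgeR adjusted p = 0.029). This call of MLS_newGene_6525 was lost in 9 of 20 alternatives (adjusted p of edgeR, DESeq2 or limma from 1.02e-08 to 0.111). It was lost without day 0 replicate 1 or 3, without control day 40 replicate 1 or 3, and without any of the REO replicates. Without day 0 replicate 3, the library low in long models, the log2 fold change was 2.02 (edgeR adjusted p = 0.0796). Between REO and control at day 40 it was -0.41 ± 0.31 (edgeR adjusted p = 0.898).

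Among members lower after storage, the largest difference was that of MLS_newGene_1678. It stood at 61.4, 55.1 and 33.0 CPM at day 0, 14.6, 6.94 and 20.9 in day 40 controls, and 6.16, 20.8 and 5.35 with REO. All 3 libraries of day 0 lay above all 6 of day 40. MLS_newGene_1678 reached the level threshold only through day 0, so its place among the members draws on the same values as the storage tests. Its calls are no support for a fall of the members. The log2 fold change without REO was -1.82 ± 0.57 (SE) and did not pass in edgeR (adjusted p = 0.158), while DESeq2 gave an adjusted p of 0.0172.

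MLS_newGene_4165, the longest member, had the largest log2 difference upwards, 2.29 ± 0.77 (SE), and did not pass (edgeR adjusted p = 0.176). It stood at 14.5, 22.6 and 4.22 CPM at day 0, 114.5, 58.9 and 29.7 in day 40 controls, and 96.5, 17.4 and 42.2 with REO. The control groups did not overlap, but within each group the replicates differed over 3-fold. Spread over its length its mean was 1.89 FPKM. MLS_newGene_4165 too reached the level threshold only through its day 40 groups, so its place among the members draws on the same values as the storage tests.

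Storage with REO was read from REO day 40 against control day 0, which shares its libraries with the other comparisons. Of the members 2 were higher (1.20%), against a background of 1.39% of all models tested, and 0 were lower, against 1.22% (edgeR quasi-likelihood test, adjusted p under 0.05). At an unadjusted edgeR p under 0.05 there were 12 higher (7.19%) and 11 lower (6.59%), against 8.26% and 10.2% of all models tested. DESeq2 called 3 higher (1.80%) and 6 lower (3.59%), against 4.18% and 4.95% of models with an adjusted p. By limma on log2(FPKM + 1) there were 2 (1.20%) and 1 (0.599%), against 1.83% and 1.4%. Without control day 40 replicate 2, edgeR called 4 higher (2.40%) and 2 lower (1.20%), against 3.06% and 3.18%.

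The groups did not overlap for 18 members higher with REO (10.8%), against 14.1% of all models tested, and for 12 lower (7.19%), against 14.4%. Without TMM scaling these counts were 21 (12.6%) and 11 (6.59%), against 16.3% and 11.7%. The members' median log2 fold change was 0.07, against 0.00 for all models tested, and it was 0.03 without day 0 replicate 3. Day 0 replicate 3 was the lowest library for many long members, as described above, and its part in these counts was not tested.

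The members that rose were MLS_newGene_6525 and MLS_newGene_4839. The log2 fold change of MLS_newGene_6525 was 1.82 ± 0.32 (SE) and passed (edgeR adjusted p = 0.0239), and its call was lost in 6 of 20 alternatives (adjusted p of edgeR, DESeq2 or limma from 4.19e-06 to 0.112). It was lost without day 0 replicate 1 or 3 and without any of the REO replicates.

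MLS_newGene_4839, with 305 CPM, 155.8 FPKM and a length scale of 1963 bases, was the most abundant member to pass in any comparison. It stood at 191.5, 184.8 and 190.7 CPM at day 0, 399.7, 247.9 and 402.3 in day 40 controls, and 415.5, 378.3 and 325.3 with REO. The day 0 libraries lay close together and below all 6 of day 40, among which control and REO overlapped. The group means were 189 ± 3.65, 349.9 ± 88.4 and 373 ± 45.3 CPM (SD, n = 3 each).

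The rise of MLS_newGene_4839 from day 0 was 0.98 ± 0.20 (SE) on the log2 scale with REO and passed (edgeR adjusted p = 0.0422). Without REO the difference, 0.89 ± 0.20, did not pass (edgeR adjusted p = 0.0805), and between REO and control at day 40 it was 0.09 ± 0.20 (edgeR adjusted p = 0.999). The call with REO was lost in 10 of 20 alternatives (adjusted p of edgeR, DESeq2 or limma from 0.00017 to 0.18). Of the 9 fits that each left out 1 library, the one without control day 40 replicate 2 kept it.

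Among members lower with REO than at day 0, MLS_newGene_1678 had the largest difference, a log2 fold change of -2.21 ± 0.58 (SE), and did not pass (edgeR adjusted p = 0.0888). It passed in 3 of 20 alternatives, with DESeq2 (adjusted p = 0.00143), with limma on log2(FPKM + 1) (adjusted p = 0.049) and in edgeR without control day 40 replicate 2 (adjusted p = 0.0403). MLS_newGene_4116 was lower by -2.20 ± 0.64 and did not pass either (edgeR adjusted p = 0.114).

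**Figure D5:**
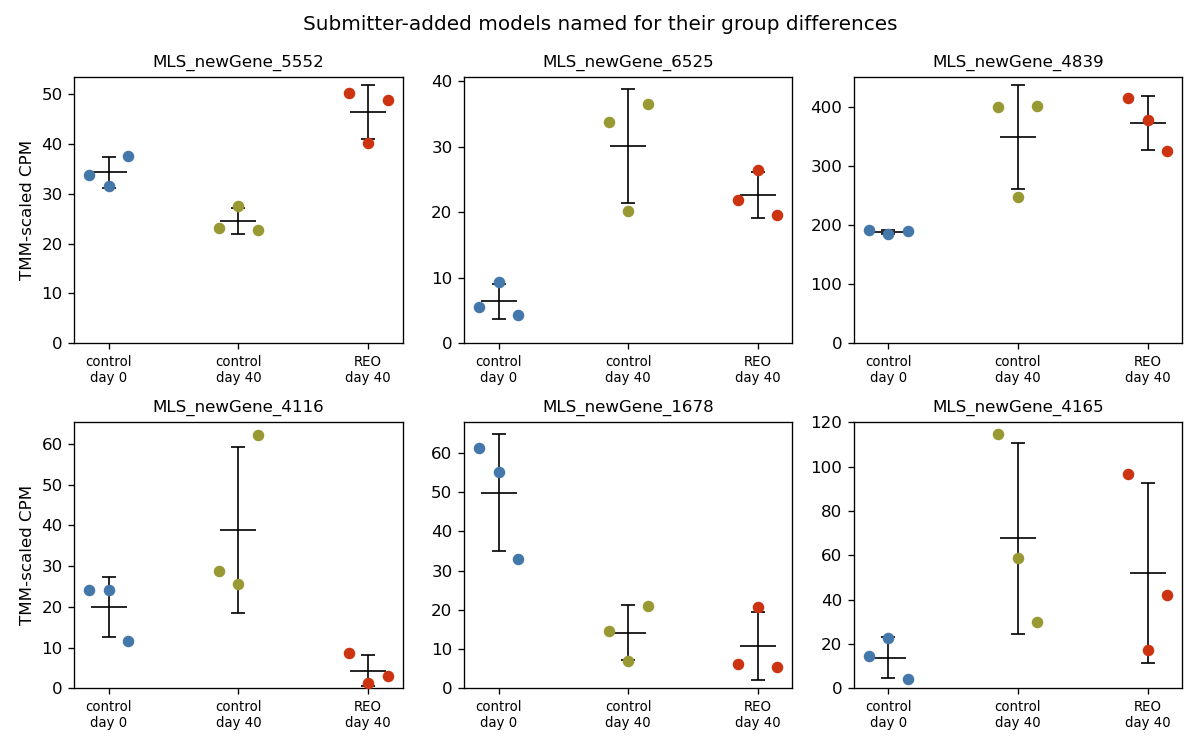
Level in TMM-scaled CPM of 6 submitter-added models in each library, with points for replicates, a line for the group mean and bars for the SD (n = 3). MLS_newGene_5552 is at 22.8 to 27.4 CPM in control tubers at day 40 and at 40.0 to 50.1 with REO, while MLS_newGene_6525 and MLS_newGene_4839 are lower in all day 0 libraries than in all 6 of day 40.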

How the data were processed

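Per the labels' protocols, total RNA was extracted from frozen tuber tissue with TRIzol, treated with DNase I, enriched on oligo(dT) beads and copied with random hexamers; no step that marks strand is described. The deposited tables give raw counts and FPKM of each model and library. The FPKM unit was read from the values, since 90.6% of 10904 well-covered models had 1 length scale within 2% over the libraries. HISAT2 2.1.0 and DESeq2 are named per the submitters' processing notes. Not given in the sources used here: the counter, the genome build, the annotation and the way models were added. Without strand, reads of a model and of an overlapping or antisense gene cannot be told apart.

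Counts were tested with edgeR 4.0.16 (filterByExpr, TMM, quasi-likelihood test, 1 coefficient per group, all 9 libraries), adjusted by Benjamini-Hochberg over 22638 models. The test prints no SE. Each SE of a log2 fold change was derived as its absolute value divided by the square root of the F statistic. Alternatives used DESeq2 1.42.0, limma 3.58.1 on log2(FPKM + pseudocount of 1 or 0.1), other scalings and filters, other level thresholds, and leaving out each library. TMM factors ran from 0.871 to 1.10, and the common biological coefficient of variation was 0.362. The fits were tested on simulated data. No replicate pair agreed within sampling noise (chi-square over its degrees of freedom, 36.4 or more). R 4.3.3 and Python 3.11.15 were used.

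The named models are the 10 highest by mean CPM, the largest called difference per comparison and direction (up to 2 each; the largest uncalled one where none passed), the neighbours of the threshold, the 3 with the largest share in 1 library, the shortest and longest pairs, and the 3 flattest. Those named for a varying length scale or for consecutive numbers (MLS_newGene_5588 included) were chosen after their values were seen. The members and lists were chosen with earlier results of these data known.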

Additional observations from a re-analysis of the deposited data

Results flagged for a closer look

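For MLS_newGene_5552, 1 of the members named, the change from day 0 to day 40 differed with and without REO. The log2 fold change was -0.49 in untreated tubers and 0.44 in fumigated ones, which differ by 0.92, with every control library of day 40 below and every REO library above the 3 libraries of day 0. The difference is the same contrast as REO against control at day 40 (edgeR adjusted p = 0.0376), so it adds nothing to that test.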

How the results depend on the processing

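The few calls depended on the setting. Shares of all models called are given above for edgeR, DESeq2, limma on log2(FPKM + 1) and edgeR without control day 40 replicate 2. For the other settings no such share is given, so their counts do not tell whether the members lost or gained calls more than other models. The alternatives for single members were run on MLS_newGene_5552, MLS_newGene_4116, MLS_newGene_6525, MLS_newGene_1678 and MLS_newGene_4839, in the comparisons they were named for, and 0 of these differences changed sign. REO against control at day 40 had 1 member higher, and 0 with scaling by library size alone, with only the 6 libraries compared and at a level of at least 50 CPM; 1 was lower with DESeq2 and with limma at either pseudocount, where edgeR called 0. In control day 40 against day 0, the 1 higher became 4 with DESeq2, 2 with limma at either pseudocount, and 0 with only those 6 libraries or at 50 CPM; the 0 lower became 5 with DESeq2 and 1 at 10 CPM. In REO against day 0, the 2 higher became 3 with DESeq2 and with only the 6 libraries compared, and 1 without a low-count filter and at 50 CPM. The 0 lower became 6 with DESeq2 and 1 with limma on log2(FPKM + 1), with only those 6 libraries and at 10 CPM. The members number 302 at 10 CPM and 64 at 50 CPM, and these levels change only the list and no model's test. At 50 CPM MLS_newGene_5552 and MLS_newGene_6525, with means of 34.9 and 20.03 CPM, leave the list. The counts at that level therefore say nothing about how steady their calls were. With the replicate block, 0 members were called in each comparison in either direction. The replicate numbers were not taken as pairs, because the labels give no meaning to them. Deviations of log CPM from the group mean correlated at -0.557 to 0.328 between same-numbered libraries, over 0.1 in 5 of 9 pairs. Deviations within a group sum to 0, so these correlations are not independent of each other. Leaving out each library gave 0 to 1 members higher and 0 lower for REO against control at day 40, 0 to 5 and 0 to 1 for control day 40 against day 0, and 0 to 4 and 0 to 2 for REO against day 0. The summed level of REO minus control at day 40, 20748 CPM, was -862.7 CPM without the 5 abundant members, an alternative chosen after seeing the data, and -791.5 to 36263 CPM when each library was left out. The cause of these shifts was not tested. At 3 libraries a group, an exact permutation test cannot go below p = 0.1.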
